A study of Mus musculus with 12 samples.

Results

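The question described here was whether the effect of giving ADU-S100 and cyto-IL-15 together departed, gene by gene, from the sum of the effects of each agent alone. All 12 tumors of the series (12 of 12) entered the contrast, which took the step from ADU-S100 to the combination and subtracted the step from HBSS to cyto-IL-15, both on the log2 scale. The tumors grew from TRAMP-C2, a single mouse prostate cancer cell line, after 5000000 cells were placed under the skin of the flank of male C57BL/6J mice aged 6 to 8 weeks, so the host was immune competent and the tumors lay outside the prostate. At a volume near 200 mm3 they were injected directly. The HBSS group received 3 doses of 50 µl of Hank's balanced salt solution, the vehicle. The cyto-IL-15 group received 2 doses of 10 µg on days 0 and 4, the ADU-S100 group 3 doses of 50 µg on days 0, 2 and 4, and the combination group both courses. The sources used here name no vehicle injection on day 2 for the cyto-IL-15 group, so the number of injections also differed between groups. RNA was taken on day 6 from 3 tumors per group, each with its own label, and p-values measure the spread between these tumors. They are called by their labels below, namely 19, 22R and 22LL (HBSS), 9R, 13 and 20LL (cyto-IL-15), 17LL, 18R and 22LR (ADU-S100) and 20L, 22 and 28LL (combination). Whenever values of 3 tumors follow a group name, they stand in this order. HBSS tumors 22R and 22LL share the number 22 in their labels. The labels do not say what it marks, so whether these tumors are independent could not be checked, and the fits treat them as independent.

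ADU-S100 is a synthetic cyclic dinucleotide that binds STING, an adaptor in the endoplasmic reticulum which, once engaged, leads to activation of interferon regulatory factors and to transcription of type I interferon genes. Interferon then induces a large set of antiviral genes in neighboring cells. Interleukin-15 is a cytokine presented by cells that carry its receptor alpha chain, and it maintains CD8+ T lymphocytes and natural killer (NK) lymphocytes and their store of perforin and granzymes. Cyto-IL-15 is a form of it that attaches to cell membranes near the site of injection. On a log2 scale, additive effects mean that the fold changes multiply. A positive interaction means a combination level above the product of the 2 single fold changes, and a negative interaction a level below it.

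Total counts ranged from 48772204 to 103700199 per tumor. Tumors 13 and 28LL stood apart from the rest, with a Pearson correlation of 0.899 to 0.958 across genes with any other tumor, against 0.97 to 0.994 between the other 10. Yap1, a transcriptional coactivator of the Hippo pathway, took 3.32% of all counts in tumor 13, 0.516% in HBSS tumor 22LL and 0.114% in tumor 28LL, and at most 0.0141% in any other tumor. Skeletal muscle fiber genes took from 0.00209% of counts in tumor 13 to 0.739% in tumor 28LL. The epithelial marker Epcam was low in every tumor but 28LL, at 0.165 to 1.02 CPM (counts scaled to the library size) against 11.9 CPM. Values without these tumors stand beside many of the results.

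No gene departed from additivity under the main test. In edgeR's quasi-likelihood test on all 12 tumors, 0 of 20132 genes (0%) reached an adjusted p under 0.05 with an absolute log2 interaction above 1, and the smallest adjusted p was 0.9997. At an unadjusted p under 0.05 there were 461 genes (2.29%), of which 200 (0.993%) were positive and 261 (1.3%) negative. Uniform p-values would put a share of 0.05 there, so 461 is fewer than that. Without tumors 13 and 28LL there were 1696 of 20132 genes, which is more than that share. The Wald test of DESeq2 called 5 genes, with 656 genes at an unadjusted p under 0.05. These were Lyz2, Cd83, Spint1 and Bend4 (positive) and Ogdhl (negative). limma voom, limma voom with tumor weights, the likelihood ratio test of edgeR and the fit on the linear scale called 0 genes, with 364, 1531, 562 and 316 genes at an unadjusted p under 0.05. A median standard error of 0.52 over all tested genes, or 0.383 over the 14141 that averaged 1 CPM or more, set the precision of the contrast. The median half-width of the 95% interval of a single gene was 0.844 for the latter. The adjustment over all genes asks for more than this interval. Interactions of 2.26 (Cd83, standard error 0.48), 3.53 (Hbb-bs, standard error 1.08) and -6.80 (Acta1, standard error 2.44) did not pass it. Of all tested genes, the middle 90% had an interaction between -1.29 and 1.14, around a median of -0.04.

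**Figure D1:**
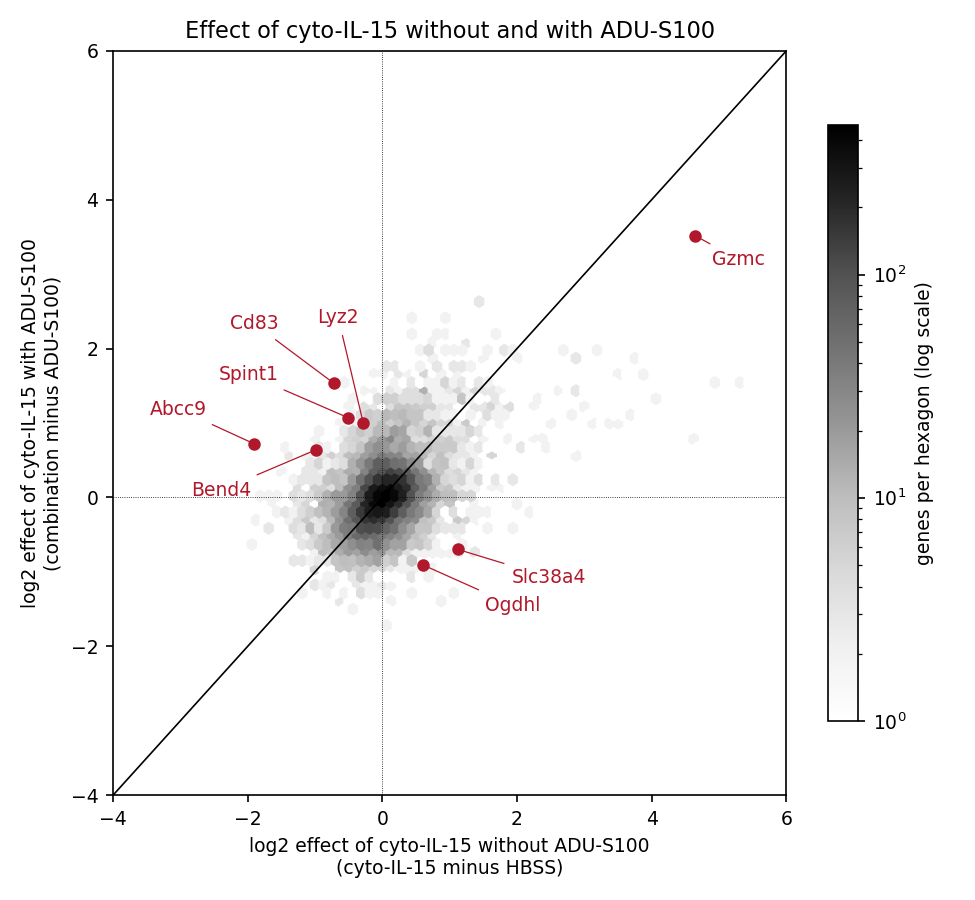
Fitted log2 effect of cyto-IL-15 without ADU-S100 (x axis) against its effect with ADU-S100 (y axis) for genes averaging 1 CPM or more, shaded by the number of genes per hexagon, with 8 genes of the text in red. The diagonal is additivity and the vertical distance from it is the interaction; 46 genes lie outside the axes of -4 to 6. Lyz2, Cd83, Spint1, Bend4 and Abcc9 lie above the diagonal, and Ogdhl, Slc38a4 and Gzmc below it.

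Lyz2, which encodes lysozyme of macrophages and neutrophils, had the smallest p of the genes with a positive interaction (chr10:117277334-117282274, GRCm38, minus strand). Its level was 1914, 1707 and 1826 CPM in the HBSS tumors and 1285, 1445 and 1749 CPM in the cyto-IL-15 tumors. ADU-S100 tumors had 771, 663 and 699 CPM and combination tumors 1133, 1471 and 1656 CPM. The 3 ADU-S100 tumors thus lay below all others, whereas the combination tumors overlapped those given cyto-IL-15 alone. Additive effects would place the combination at 580 CPM, against an observed geometric mean of 1402 CPM. The interaction was 1.28 ± 0.25 (SE, n = 3 tumors per group; 95% interval 0.72 to 1.84; edgeR adjusted p = 0.9997, DESeq2 adjusted p = 0.00918). It was 1.15 to 1.45 when each tumor was left out in turn and 1.14 without tumors 13 and 28LL. Lyz1, a near-identical neighbor whose reads may be split with Lyz2, had an interaction of 1.73 ± 0.60.

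Cd83 encodes a surface protein of the immunoglobulin family found on activated dendritic cells, B cells and macrophages (chr13:43785107-43803130, plus strand). It was at 27.9, 22.8 and 24.0 CPM in HBSS tumors, 20.9, 8.51 and 15.9 CPM in cyto-IL-15 tumors, 4.28, 6.79 and 3.70 CPM in ADU-S100 tumors and 10.9, 14.7 and 17.2 CPM in combination tumors. The direction of the cyto-IL-15 difference crossed over, since every cyto-IL-15 tumor lay below every HBSS tumor and every combination tumor above every ADU-S100 tumor. The interaction was 2.26 ± 0.48 (95% interval 1.21 to 3.31; edgeR adjusted p = 0.9997, DESeq2 adjusted p = 0.0237) and 1.82 without tumors 13 and 28LL.

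Bend4, a gene for a protein with a BEN domain, crossed over in the same way (chr5:67392147-67428310, minus strand). HBSS tumors had 4.91, 7.11 and 5.13 CPM, cyto-IL-15 tumors 2.93, 2.92 and 2.82 CPM, ADU-S100 tumors 2.36, 3.67 and 3.76 CPM and combination tumors 5.13, 4.93 and 5.21 CPM. Each agent alone went with a lower level, and tumors given both were at the level of the vehicle. The interaction was 1.63 ± 0.37 (edgeR adjusted p = 0.9997, DESeq2 adjusted p = 0.00918), and 1.62 without tumors 13 and 28LL.

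Spint1 and Ogdhl differed from these in that the combination tumors lay outside the range of the other 9. Spint1 encodes a membrane inhibitor of serine proteases that act on epithelial surfaces and on hepatocyte growth factor (chr2:119237362-119249527, plus strand). It was at 12.8, 12.5 and 9.60 CPM (HBSS), 8.14, 10.0 and 6.33 CPM (cyto-IL-15), 7.87, 12.4 and 10.9 CPM (ADU-S100) and 19.9, 22.7 and 23 CPM (combination). Neither agent alone moved it above the vehicle tumors, and the expected additive level was 7.09 CPM. Its interaction of 1.58 ± 0.33 (edgeR adjusted p = 0.9997, DESeq2 adjusted p = 0.0187) was 1.72 without tumors 13 and 28LL.

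Ogdhl, which encodes a mitochondrial enzyme related to oxoglutarate dehydrogenase, was the counterpart in the other direction (chr14:32322019-32347820, plus strand). It was at 10.5, 8.57 and 8.76 CPM in HBSS tumors, 15.7, 10.2 and 16.3 CPM in cyto-IL-15 tumors, 8.19, 7.30 and 7.24 CPM in ADU-S100 tumors and 4.77, 3.36 and 4.01 CPM in combination tumors. The additive expectation was 11.3 CPM and the observed geometric mean 4.01 CPM. With an interaction of -1.51 ± 0.33 (edgeR adjusted p = 0.9997, DESeq2 adjusted p = 0.0187), it was the only gene that DESeq2 called in this direction. For these 5 genes DESeq2 gave the lowest adjusted p, and the next lowest under any of 23 alternative settings was between 0.0821 (Lyz2, Ogdhl) and 0.408 (Bend4), up to 1.

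Scn2a, a sodium channel subunit gene, was a 6th gene at an adjusted p under 0.05 in DESeq2 (adjusted p = 0.0097; next lowest 0.06, highest 1), but its interaction of -0.92 ± 0.28 was under the fold threshold. Its tumors were tightly grouped, at 5.66, 6.06 and 5.98 CPM (HBSS), 7.04, 7.25 and 6.92 CPM (cyto-IL-15), 6.27, 6.65 and 6.08 CPM (ADU-S100) and 3.81, 3.77 and 4.48 CPM (combination). Cyto-IL-15 alone therefore went with a higher level and cyto-IL-15 on top of ADU-S100 with a lower one, without overlap in either pair.

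**Figure D2:**
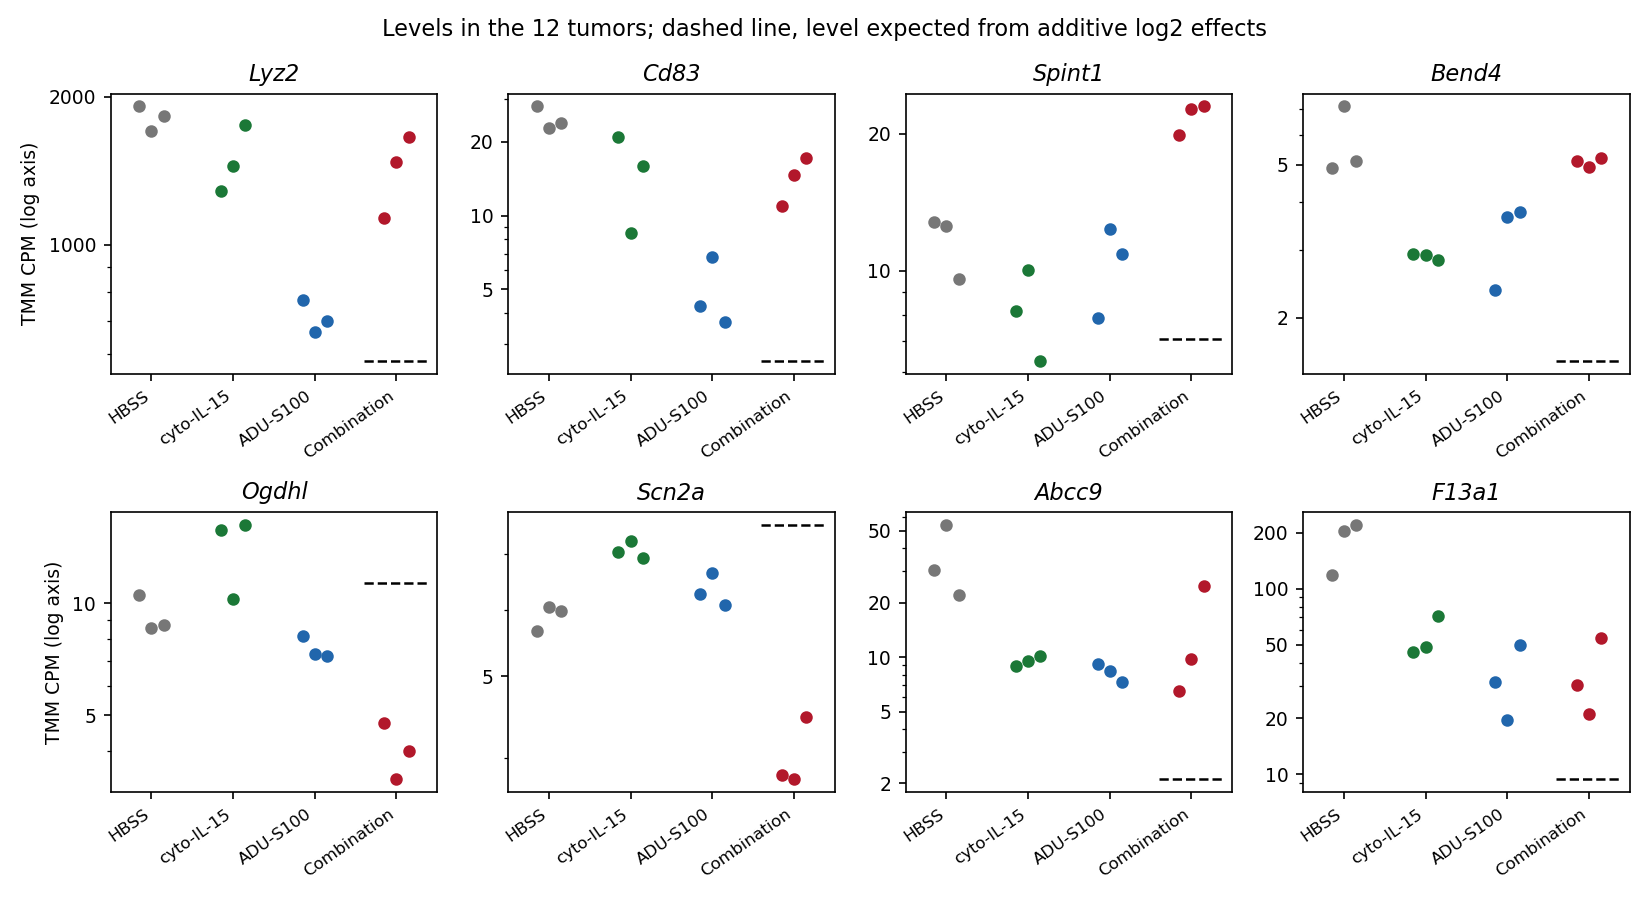
Level of 8 genes in each of the 12 tumors (TMM-normalized CPM, log axis), by group, with the combination level expected from additive log2 effects as a dashed line. Combination tumors lie above the line for Lyz2 (expected 580 CPM), Cd83, Spint1, Bend4, Abcc9 and F13a1, and below it for Ogdhl (expected 11.3 CPM) and Scn2a.

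Genes were also counted by the values of single tumors, without a test. A crossing with cyto-IL-15 below HBSS and the combination above ADU-S100 was seen in 15 genes (0.0745%), and the opposite crossing in 29 genes (0.144%). The split depended on the scaling, with 20 and 21 genes when CPM of the library total were used. All 3 combination tumors lay above the other 9 in 138 genes (0.685%) and below them in 188 genes (0.934%). Tumor 28LL was the highest of the 3 in 90 of the former and the lowest in 140 of the latter. Leaving out combination tumor 20L gave 1034 and 845 such genes. Without tumors 13 and 28LL, the crossings were 324 and 282 genes and the outlying combinations 782 and 645 genes. These counts rise by construction when fewer tumors must be separated. Ncald, a neuronal calcium sensor gene, shows how a single tumor can carry the shape, since combination tumors were at 1.70, 2.48 and 12.4 CPM against 0.912 to 1.59 CPM elsewhere, and its interaction of 2.17 fell to 0.60 without tumors 13 and 28LL.

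The crossing genes with a negative interaction included several with a narrow spread. Tcf7l1, a repressor in the Wnt pathway, was at 22.0, 22.7 and 27.0 CPM (HBSS), 27.8, 29.2 and 29.5 CPM (cyto-IL-15), 31.9, 30.8 and 23.6 CPM (ADU-S100) and 20.7, 18.3 and 14.5 CPM (combination). Its interaction was -0.96 ± 0.25. Tsc22d1, a transcription regulator induced by TGF-β, had an interaction of -0.72 ± 0.20, and Nsrp1, a splicing regulator of nuclear speckles, of -0.63 ± 0.19. Pcdhb9, a protocadherin, had a wider spread, at 3.26, 6.52 and 3.59 CPM with cyto-IL-15. Its interaction was -1.71 ± 0.47, or -1.23 without tumors 13 and 28LL. The Pcdhb genes form a family of close paralogs, so the values of Pcdhb9 are uncertain. None of these passed the adjusted threshold in edgeR or DESeq2.

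Other genes with a negative interaction had a higher mean level with at least 1 agent alone and, with both, a level below the product of the single effects. Slc38a4, an amino acid transporter gene, was at 1.76, 1.73 and 1.59 CPM with HBSS, 3.93, 2.79 and 4.33 CPM with cyto-IL-15, 6.36, 3.71 and 4.00 CPM with ADU-S100, and 2.45, 1.77 and 4.45 CPM with both. Each agent alone lay above the vehicle without overlap, and the combination also lay above the vehicle while overlapping either agent. Its interaction was -1.82 ± 0.53, and -2.43 without tumors 13 and 28LL (unadjusted p = 8.2e-05). Thbs3, a thrombospondin of the matrix, had an interaction of -1.11 ± 0.33, Fbn2, a microfibril component, of -2.43 ± 0.77, Col8a2, a short-chain collagen, of -2.03 ± 0.64, and Hoxb9, a homeobox gene of body patterning, of -2.63 ± 0.75. For Fbn2 and Hoxb9 the tumors of either single agent overlapped the vehicle tumors. Tumor 13 was the highest cyto-IL-15 tumor for both (15.79 and 17.55 CPM), and their interactions were -2.21 and -2.06 without tumors 13 and 28LL. Of the 30 genes with the smallest p and an average of 1 CPM or more, 15 in each direction, 29 kept an unadjusted p under 0.05 in all 12 fits that left out 1 tumor, and 29 did so without tumors 13 and 28LL. These genes were chosen by p on the same tumors, so the counts describe how far single tumors carried them and are no support.

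**Figure D3:**
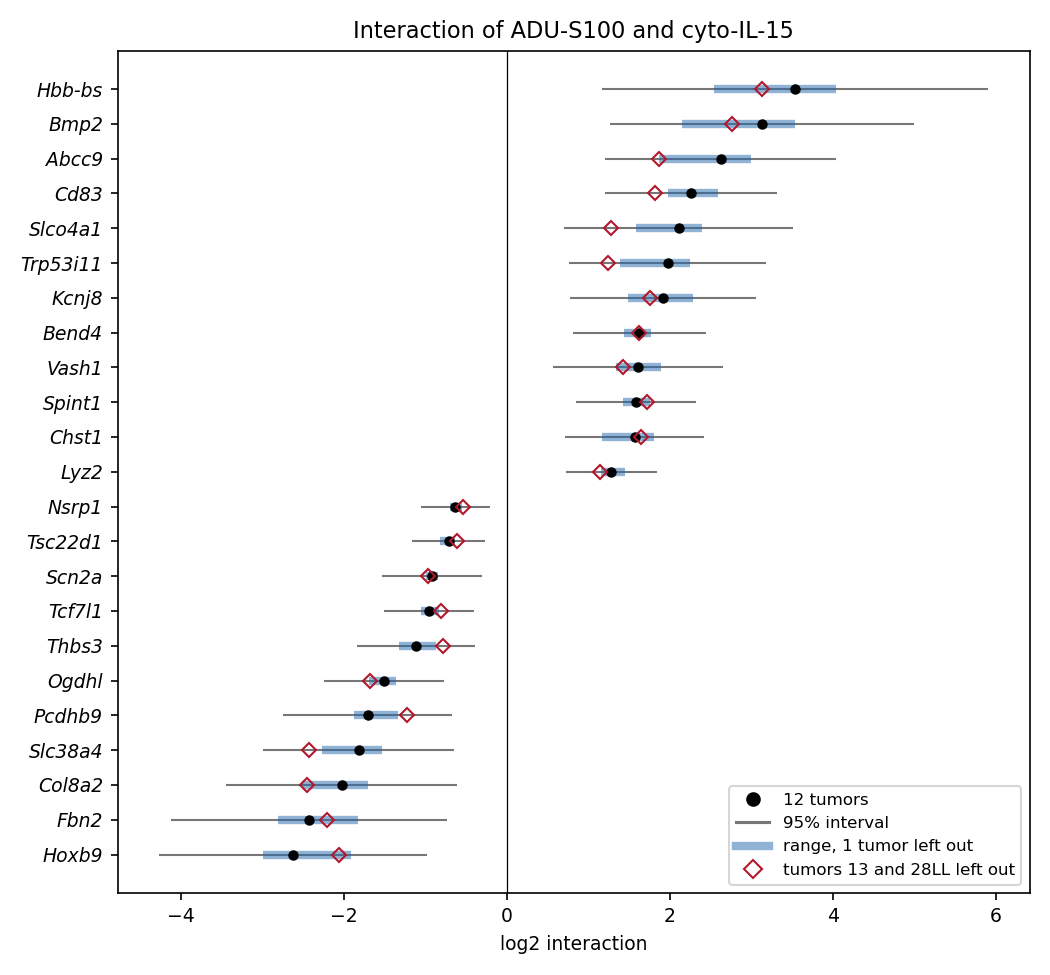
Log2 interaction (x axis) of 23 genes, those of the text among the 30 with the smallest p. Black points and gray lines give the value from 12 tumors with its 95% interval, blue bars the range when 1 tumor is left out, and red diamonds the value without tumors 13 and 28LL. No interval of these genes includes 0, as their choice by p requires, and Lyz2 runs from 0.72 to 1.84.

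Abcc9, Kcnj8 and Mcam of the vessel wall, and the matrix gene Col4a1, had lower levels with each agent alone. With both agents their levels overlapped or exceeded those of a single agent. Abcc9 and Kcnj8 encode the subunits of a potassium channel of pericytes, the contractile cells that wrap capillaries, and are neighbors on the minus strand (chr6:142587862-142702315 and chr6:142564837-142571614). Abcc9 was at 30.5, 54.1 and 22.2 CPM in HBSS tumors, 8.93, 9.49 and 10.2 CPM with cyto-IL-15, 9.22, 8.41 and 7.32 CPM with ADU-S100, and 6.47, 9.74 and 24.9 CPM with both. The HBSS tumors lay above both single agents, and only tumor 28LL of the combination reached their range. The interaction was 2.62 ± 0.64, and 1.87 without tumors 13 and 28LL. Kcnj8, at 14.5, 25.8 and 11 CPM with HBSS and 4.01 to 8.25 CPM in the other 9 tumors, had an interaction of 1.91 ± 0.52 that did not rest on tumor 28LL (1.75 without it and tumor 13). Mcam, an adhesion molecule of pericytes and endothelium, had an interaction of 1.5 ± 0.47 and Col4a1, a collagen of basement membranes, of 1.34 ± 0.43, which was 0.87 without HBSS tumor 22R. Col4a1 was taken from the fibroblast and matrix list, in which 13 of 19 genes had a negative interaction and the median was -0.16. In RNA from whole tumors, fewer cells of a type and less RNA per cell cannot be told apart.

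Over the pericyte list, 5 of 15 genes were at an unadjusted p under 0.05 and all 5 were positive, against 0.993% positive at that level over all tested genes. They were Abcc9, Kcnj8, Mcam and, named after their values were seen, Cspg4 and Rgs5. No gene of any list was called by edgeR. The median interaction was 0.74, and 0.20 without tumors 13 and 28LL, against -0.04 over all tested genes. Of the endothelial list 19 of 19 had a positive interaction, against 9217 of 20132 tested genes, with a median of 0.62 that turned to -0.21 without tumors 13 and 28LL. At an unadjusted p under 0.05 were 2 of the 19, against 2.29% of all tested genes. The mean log2 level of the endothelial list was 5.90 in tumor 28LL, against 4.64 and 4.70 in tumors 20L and 22. In tumor 13 it was 3.69, against 4.43 and 4.61 in tumors 9R and 20LL. Genes of the pericyte and endothelial lists were counted in the same tumors, so they are not separate observations. Both lists were chosen with earlier results of these data known. Over the pericyte list the median log2 difference from HBSS was -0.81 with cyto-IL-15 and -0.52 with ADU-S100. Over the endothelial list it was -0.51 and 0.17, so a lower level with each agent alone did not hold for that list. Flt1, a receptor for vascular endothelial growth factor, had an interaction of 0.74 ± 0.30, or 0.44 without HBSS tumor 22R. Its ADU-S100 tumors, at 68.2, 59.8 and 65.5 CPM, lay within the HBSS range of 49.2 to 91.4 CPM. Vwf, von Willebrand factor, had 1.84 ± 0.73, or 0.94 without combination tumor 28LL. HBSS tumor 22R had the highest mean level of the pericyte list among HBSS tumors (4.41 on the log2 scale, against 4.10 and 3.82), and also the highest share of hemoglobin counts of all tumors (0.00877%, against 0.000553% to 0.0045%). Kit, the receptor for stem cell factor (2.35 ± 0.73), Vash1, an inhibitor of vessel growth (1.60 ± 0.47), and Chst1, a carbohydrate sulfotransferase (1.57 ± 0.39), were also higher in every HBSS tumor than in any tumor given a single agent. The value of Kit was 1.47 without combination tumor 28LL, at 30 CPM against 8.16 and 8.77 CPM in the other combination tumors, and 1.38 without tumor 13 as well. Kit was taken from the mast cell and basophil list, in which 6 of 9 tested genes had a negative interaction and the median was -0.98. Bmp2, a growth factor of the TGF-β family, was at 4.18, 14.4 and 3.15 CPM (HBSS), 0.906, 1.46 and 1.62 CPM (cyto-IL-15), 3.34, 3.06 and 3.26 CPM (ADU-S100) and 2.17, 5.44 and 7.93 CPM (combination), with an interaction of 3.13 ± 0.85. For Bmp2 the 3 cyto-IL-15 tumors lay below the other 9. The same held for Slco4a1, an organic anion transporter gene (2.11 ± 0.64, or 1.28 without tumors 13 and 28LL), and for Trp53i11, a gene induced by p53 (1.97 ± 0.55, or 1.23).

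Hemoglobin transcripts, which mark red blood cells in the tissue, had the same direction. Hbb-bs was at 14, 46.8 and 9.53 CPM with HBSS, 6.75, 2.64 and 7.15 CPM with cyto-IL-15, 3.58, 4.18 and 7.75 CPM with ADU-S100, and 23.7, 3.12 and 15.4 CPM with both. Combination tumor 22 lay with the single agents while 20L and 28LL overlapped the vehicle. The interaction was 3.53 ± 1.08 for Hbb-bs and 2.61 ± 0.88 for Hba-a1, and 5 of 8 genes of the list were positive at an unadjusted p under 0.05, against 0.993% of all tested genes. The hemoglobin genes are close paralogs counted in the same tumors, so these are not separate observations. How far blood content set the values of the vessel genes was not tested.

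Macrophage genes lay mostly above additivity, though none passed the adjusted threshold in edgeR. All 12 genes of the pan-macrophage list had a positive interaction with a median of 0.66, where 9217 of 20132 tested genes were positive and the median of all was -0.04. At an unadjusted p under 0.05 were 3 of the 12, Lyz2, Lyz1 and Cd14 (0.74 ± 0.33, or 0.40 without tumors 13 and 28LL), against 0.993% positive over all tested genes. In the resident-type list 20 of 22 were positive with a median of 0.90 and 4 were at an unadjusted p under 0.05, namely Cd83, F13a1, Alox5 and, named after its value was seen, Cbr2. F13a1, the factor XIII subunit made by tissue macrophages, was at 118, 204 and 221 CPM with HBSS, 45.3, 48.5 and 71.5 CPM with cyto-IL-15, 31.4, 19.6 and 49.8 CPM with ADU-S100 and 30.4, 21.2 and 54.1 CPM with both. It was highest in the 3 HBSS tumors, and the ADU-S100 and combination tumors overlapped. The interaction of 1.79 ± 0.58 was 1.26 without tumors 13 and 28LL. Alox5, which encodes the enzyme that starts leukotriene synthesis, was at 14.7, 10.4 and 15.5 CPM (HBSS), 7.25, 6.42 and 12.2 CPM (cyto-IL-15), 2.81, 2.00 and 2.10 CPM (ADU-S100) and 2.73, 4.39 and 36.7 CPM (combination). Its interaction of 3.31 ± 1.10 was 1.12 without tumors 13 and 28LL, of which 28LL was the only combination tumor above the vehicle range. Without these tumors the list medians were 0.04 (pan-macrophage) and 0.44 (resident-type). The genes of each list were counted in the same tumors, so they are not separate observations.

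**Figure D4:**
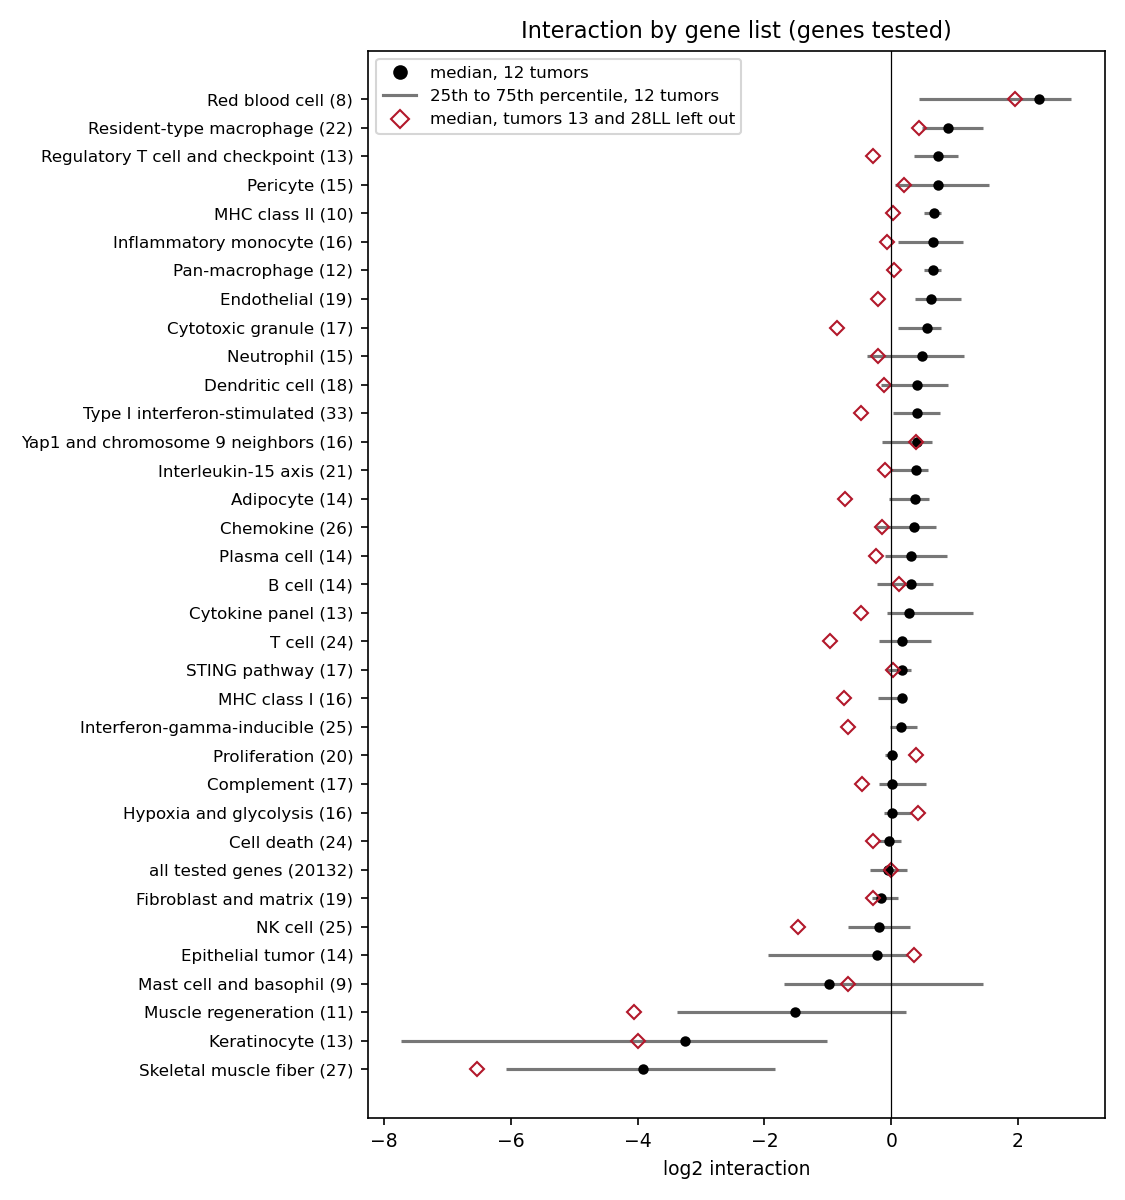
Median log2 interaction (x axis) of 34 gene lists and of all tested genes, with the number of genes tested in parentheses. Black points and gray lines are medians and 25th to 75th percentiles from 12 tumors and red diamonds are medians without tumors 13 and 28LL; the medians of the NK cell, T cell, cytotoxic granule and type I interferon lists are at -0.20, 0.18, 0.56 and 0.40 and shift to -1.47, -0.96, -0.86 and -0.47.

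No departure from additivity was detected among interferon-stimulated genes. The median difference that went with ADU-S100 over the type I list was 2.05 on the log2 scale in the absence of cyto-IL-15 and 2.52 in its presence. None of the 33 genes tested was at an unadjusted p under 0.05 and the median interaction was 0.40, or -0.47 without tumors 13 and 28LL. Ifi44 was at 13.4, 6.98 and 10.8 CPM with HBSS, 8.62, 3.78 and 7.06 CPM with cyto-IL-15, 82.7, 78.7 and 127 CPM with ADU-S100 and 28.7, 41.9 and 94.4 CPM with both. Combination tumors 20L and 22 lay below the ADU-S100 tumors and tumor 28LL among them. The interaction was -0.13 ± 0.63 for Ifi44, -0.10 ± 0.49 for the GTPase gene Irgm1, -0.30 ± 0.42 for Xaf1, which encodes a proapoptotic protein, 1.11 ± 0.76 for the antiviral enzyme gene Oas2 and 1.21 ± 0.66 for Ifi27l2a. Without tumors 13 and 28LL the values were -1.04 for Ifi44 (unadjusted p = 0.0388), -0.82 for Irgm1 (unadjusted p = 0.0162), -0.84 for Xaf1 (unadjusted p = 0.00954), 0.02 for Oas2 and 0.22 for Ifi27l2a, and the smallest adjusted p of edgeR over all genes was 0.252. Cxcl10, a chemokine that draws T and NK cells, was at 69.6, 55.6 and 80.7 CPM (HBSS), 110, 11.4 and 75 CPM (cyto-IL-15), 223, 252 and 249 CPM (ADU-S100) and 152, 263 and 307 CPM (combination), with an interaction of 0.06 ± 0.81, or -0.64 without these tumors.

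The promoters of Cxcl10 and Irgm1, as interferon targets with interactions near 0, and of Lyz2, as the gene with the smallest p, show the sequences concerned. Each runs from 250 bases before to 50 bases after the start of the gene (RefSeq, GRCm38.p6) and is read 5′ to 3′ on the strand of the gene. Capitals mark matches to GAAANNGAAA on either strand, the core of the interferon-stimulated response element.
Cxcl10 (chr5:92348840-92349139, minus strand): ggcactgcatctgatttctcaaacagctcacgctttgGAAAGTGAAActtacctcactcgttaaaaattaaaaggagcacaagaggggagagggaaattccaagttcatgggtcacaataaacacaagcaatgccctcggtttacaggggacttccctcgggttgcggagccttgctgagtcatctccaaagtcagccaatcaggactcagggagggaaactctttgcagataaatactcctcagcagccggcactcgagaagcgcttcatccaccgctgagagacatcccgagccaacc
Irgm1 (chr11:48871371-48871670, minus strand): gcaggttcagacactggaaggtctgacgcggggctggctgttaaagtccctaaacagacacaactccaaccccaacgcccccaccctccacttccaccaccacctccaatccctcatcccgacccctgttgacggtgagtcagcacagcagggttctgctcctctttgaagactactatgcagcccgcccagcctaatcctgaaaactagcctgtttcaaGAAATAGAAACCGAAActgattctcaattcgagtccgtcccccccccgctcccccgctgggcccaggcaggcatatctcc
Lyz2 (chr10:117282223-117282522, minus strand): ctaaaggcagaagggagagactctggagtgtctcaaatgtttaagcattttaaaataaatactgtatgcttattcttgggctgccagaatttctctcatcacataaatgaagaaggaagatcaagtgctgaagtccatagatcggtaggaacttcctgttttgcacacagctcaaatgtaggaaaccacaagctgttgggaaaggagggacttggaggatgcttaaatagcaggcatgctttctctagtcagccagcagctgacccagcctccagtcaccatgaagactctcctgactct
Cxcl10 held 1 match, Irgm1 2 overlapping matches and Lyz2 0. The motif was in 943 of 27025 promoters (3.49%) and in 13 of the 23 promoters found for the 34 genes of the type I list (56.5%). Among the macrophage lists 1 of 26 promoters held it (3.85%). A match describes the letters of the window and not a bound site.

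Cytotoxic genes had higher levels with either agent and the highest mean level with both, and the side of additivity on which they lay depended on tumors 13 and 28LL and on the scale. Gzmb, a granzyme that triggers apoptosis in target cells, was at 2.77, 2.42 and 4.09 CPM with HBSS, 12.5, 18.2 and 14 CPM with cyto-IL-15, 39.3, 57.2 and 85.2 CPM with ADU-S100 and 61.2, 306 and 2307 CPM with both. The groups were in ascending order with overlap between ADU-S100 and the combination alone, and the combination tumors spanned a wide range. Its interaction of 1.62 ± 1.27 became -0.49 without tumors 13 and 28LL. Prf1, the pore-forming perforin, had 1.15 ± 1.26 and -1.37, and Gzma 0.31 ± 1.18 and -1.65. Gzmc, a granzyme of strongly activated lymphocytes, was at 0.911, 0.871 and 1.19 CPM (HBSS), 21.8, 38.7 and 14.5 CPM (cyto-IL-15), 57.0, 61.4 and 106 CPM (ADU-S100) and 143, 216 and 2210 CPM (combination). The single effects of 4.65 and 6.23 on the log2 scale multiply to an expected 1150 CPM, against an observed geometric mean of 409 CPM. The interaction was -1.14 ± 1.19 on this scale (-2.92 without tumors 13 and 28LL, unadjusted p = 0.00013). When levels were added on the linear scale it was 757 CPM above additivity (limma unadjusted p = 0.27), with tumor 28LL far above the other combination tumors. The granzyme genes Gzmc to Gzmg are close paralogs and their counts are uncertain.

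Over the cytotoxic granule list 0 of 17 genes, over the NK cell list 0 of 25 and over the T cell list 0 of 24 were at an unadjusted p under 0.05. The mean log2 level of the NK list was 3.32 and 3.61 in cyto-IL-15 tumors 9R and 20LL but 1.76 in tumor 13, within the HBSS range of 1.51 to 1.87. In the combination it was 3.06 and 4.05 in tumors 20L and 22 and 5.32 in tumor 28LL. Tumor 13 was thus the lowest of its group and tumor 28LL the highest of its group, and leaving both out moved the NK median from -0.20 to -1.47. Ifng, made by activated T and NK cells, was at 0.472, 0.281 and 0.459 CPM (HBSS), 1.08, 0.464 and 1.52 CPM (cyto-IL-15), 1.94, 2.18 and 2.04 CPM (ADU-S100) and 1.11, 3.33 and 10.4 CPM (combination), with an interaction of -0.07 ± 0.92, or -1.56 without tumors 13 and 28LL (unadjusted p = 0.0274). Endogenous Il15 (0.43 ± 0.67) and Il15ra (0.40 ± 0.58) had intervals that included 0, and their values were -0.32 and -0.51 without these tumors.

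**Figure D5:**
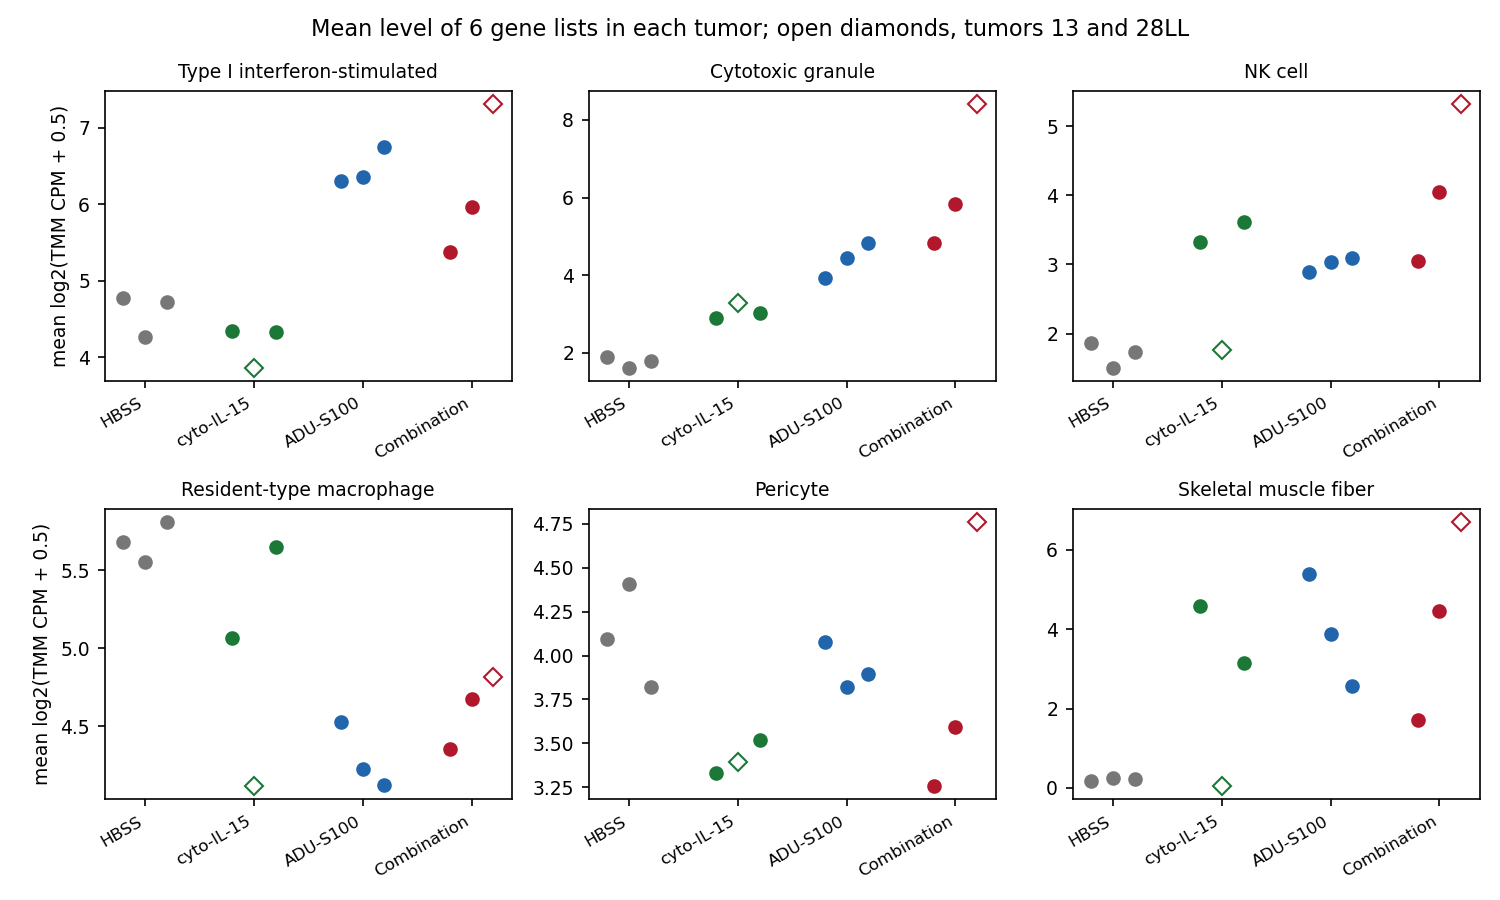
Mean log2(TMM CPM + 0.5) of 6 gene lists (y axis) in each tumor, by group, with tumors 13 and 28LL as open diamonds. For the NK cell list tumor 13 (1.76) lies with the HBSS tumors and tumor 28LL (5.32) above all others; muscle fiber genes are near 0 in the HBSS tumors and in tumor 13.

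Of the 13 genes of the cytokine panel, 2 were at an unadjusted p under 0.05, both positive, against 0.993% positive over all tested genes. Il12b, a subunit of interleukins 12 and 23, was at 1.71, 0.938 and 2.24 CPM (HBSS), 1.31, 0.464 and 0.927 CPM (cyto-IL-15), 0.477, 1.06 and 0.484 CPM (ADU-S100) and 0.807, 2.03 and 1.65 CPM (combination). The groups overlapped, and the interaction was 2.00 ± 0.76. For the inflammatory cytokine gene Il1b the interaction of 2.68 ± 1.07 rested on tumor 28LL, at 79.8 CPM against 3.97 to 8.07 CPM in the other 11, and was 0.93 without tumors 13 and 28LL.

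The remaining immune lists held few or no genes at an unadjusted p under 0.05. The MHC class II list holds the molecules by which antigen-presenting cells show peptides to CD4+ T cells. Of its genes 9 of 10 were positive, against 9217 of 20132 tested genes, and 0 were at an unadjusted p under 0.05. The median interaction of the list was 0.67, which became 0.03 without tumors 13 and 28LL. For MHC class I the median was 0.17, or -0.75 without these tumors, with 0 of 16 genes at that level. The regulatory T cell and checkpoint list had 0 of 13 with a median of 0.74 that turned to -0.29, and the neutrophil list 0 of 15 with a median of 0.49 that turned to -0.21. Among inflammatory monocyte genes 2 of 16 were positive at an unadjusted p under 0.05, against 0.993% of all tested genes. They were Cd300e and F13a1, and F13a1 is also counted in the resident-type macrophage list. The STING pathway list, with the sensor and its kinases, had 0 of 17 tested genes and a median of 0.17. STING itself was not among these, since the symbol Sting1 was not matched, and Trex1 was under the filter. Proliferation genes had 0 of 20 and a median of 0.02. All of these medians stand beside -0.04 over all tested genes, and their direction turned with the 2 tumors except for MHC class II, the STING pathway (0.02) and proliferation (0.39).

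Genes of skeletal muscle fibers had the lowest interactions of any list, with a median of -3.91, which moved to -6.53 without tumors 13 and 28LL. At an unadjusted p under 0.05, 8 of 27 genes were negative, against 1.3% of all tested genes. The muscle genes were counted in the same tumors, so they are not separate observations. Acta1, the actin of muscle fibers, was at 0.504, 0.509 and 0.580 CPM in HBSS tumors, 274, 0.663 and 116 CPM with cyto-IL-15, 774, 214 and 72.2 CPM with ADU-S100 and 20.9, 376 and 1918 CPM with both. It was near 0 in all vehicle tumors and in tumor 13, and varied widely in the other 8. The fitted interaction was -6.80 ± 2.44, or -9.33 without tumors 13 and 28LL, and its sign turned on the linear scale (289 CPM, limma unadjusted p = 0.639). Keratinocyte genes had a median of -3.25, with their mean log2 level highest in ADU-S100 tumor 17LL (2.00), cyto-IL-15 tumors 13 (0.94) and 9R (0.90) and HBSS tumor 22LL (0.61). Many were near 0 in most tumors, so this median is uncertain and no value is given for single genes of the list. How much the amount of muscle or skin in the sampled piece contributed was not tested. With the muscle level as a covariate edgeR called 0 genes, with 1783 at an unadjusted p under 0.05.

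Yap1 gave no interpretable interaction. It was at 130, 143 and 5049 CPM in HBSS tumors, 99.0, 37380 and 96.7 CPM with cyto-IL-15, 122, 120 and 131 CPM with ADU-S100 and 127, 97.0 and 1142 CPM with both. A single tumor in each of 3 groups was far above the others, so the interaction of -0.95 ± 2.74 ranged from -4.62 to 6.05 when single tumors were left out.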

How the data were processed

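RNA was measured by sequencing in 12 tumors, 3 per group, with groups taken from the treatment labels. Per the labels, libraries were made with the NEBNext Ultra II kit, and the submitters' processing notes name Trimmomatic 0.36 and STAR 2.5.2b as well as Subread 1.5.2 with its counter featureCounts, and the builds GRCm38 and mm10, which share coordinates. The deposited files hold raw counts of reads per Ensembl gene, made by the authors with featureCounts and not normalized. The strand setting and the handling of reads with several matches are not given in the sources used here, so overlapping genes and close paralogs are uncertain. Of 49315 gene identifiers, 48970 were given a symbol.

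Counts were fitted in R 4.3.3 with edgeR 4.0.16, using TMM scaling, filterByExpr (minimum count 10, minimum total 15), robust dispersions and the quasi-likelihood F test, with 1 mean per group and no covariate. The interaction was a contrast of the 4 group means, adjusted by Benjamini-Hochberg over 20132 genes and called where the absolute log2 value exceeded 1 with adjusted p below 0.05. The standard error is the absolute estimate divided by the square root of F. The common biological coefficient of variation was 0.429. Levels are TMM CPM, and list levels are means of log2(CPM + 0.5). The additive expectation was computed from geometric means of CPM + 0.5, so it can differ slightly from the fit. Alternatives were DESeq2 1.42.0, limma 3.58.1 (voom with and without tumor weights, and linear CPM), the likelihood ratio test, RLE scaling, other filters, muscle genes as covariate or left out, each tumor left out in turn, and tumors 13 and 28LL left out together. The quasi-likelihood and likelihood ratio tests of edgeR, DESeq2 and limma voom without tumor weights were run on simulated counts. The fits with tumor weights, on linear CPM and with the muscle covariate were not.

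Named genes were the 15 with the smallest p in each direction among genes averaging 1 CPM or more, the leading genes of each tumor-by-tumor shape, up to 3 genes with the smallest p per list, and the genes that the study names or measured as protein or that led an earlier account. Only some of these are described. The members and the 34 lists were chosen with earlier results of these data known. No file was left out.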

Additional observations from a re-analysis of the deposited data

How the results depend on the processing

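Under every alternative other than DESeq2, which called 5 genes, 0 genes were called for the interaction, with smallest adjusted p-values between 0.06 (linear scale) and 1. Genes at an unadjusted p under 0.05 numbered 461 of 20132. With no filter on low counts they numbered 816 of 40986, and with a mean of at least 1 CPM 283 of 14141. These counts moved with the number of genes tested. Over the same 20132 genes there were 1531 with limma voom and tumor weights, 1783 with the muscle covariate and 1696 without tumors 13 and 28LL. With 1 tumor left out they ranged from 259 to 829. Crossing genes numbered 15 (up) and 29 (down), 324 and 282 without tumors 13 and 28LL, and 24 to 87 and 39 to 105 with 1 tumor left out. Genes with the combination above the other 9 tumors numbered 138 of 20132, and 85 of 14141 with a mean of at least 1 CPM. They numbered 782 without tumors 13 and 28LL and 141 to 1034 with 1 tumor left out. Those below numbered 188, or 645 without tumors 13 and 28LL and 197 to 845 with 1 tumor left out. Of 52 genes described, 39 kept their direction in all of up to 23 settings. Without tumors 13 and 28LL the sign turned for Gzma (-1.65), Gzmb (-0.49), Prf1 (-1.37), Cxcl10 (-0.64), Il15 (-0.32), Il15ra (-0.51) and Yap1 (4.04). With limma voom and tumor weights it turned for Gzma (-1.18), Gzmb (-0.15), Prf1 (-0.99), Cxcl10 (-0.24), Il15 (-0.041), Il15ra (-0.26) and Yap1 (1.61), and with limma voom for Gzma (-0.32), Prf1 (-0.079) and Yap1 (0.31). On the linear scale it turned for Gzmc (757 CPM), Acta1 (289 CPM) and Ifng (2.27 CPM), and with the muscle covariate for Ifng (0.33), Ifi44 (0.19) and Irgm1 (0.19). With 1 tumor left out the interaction ranged across 0 for Gzma (-1.27 to 1.13), Gzmb (-0.66 to 2.2), Prf1 (-1.17 to 1.73), Ifng (-1.22 to 0.44), Ifi44 (-0.77 to 0.21), Irgm1 (-0.60 to 0.23), Xaf1 (-0.78 to 0.0037), Cxcl10 (-0.44 to 0.69), Il15 (-0.0025 to 0.90), Il15ra (-0.29 to 0.72) and Yap1 (-4.62 to 6.05). No paired analysis was possible because no pair of groups shares more than 1 number in its tumor labels. The number 22 occurs in HBSS tumors 22R and 22LL and in ADU-S100 and combination tumors, and 20 in cyto-IL-15 and combination tumors. The labels do not say what these numbers mark. The causes of these shifts were not tested. With 3 tumors per group the median interval half-width was 0.844 for single genes of at least 1 CPM, and the adjusted threshold asks for larger departures.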
